A study of Homo sapiens with 2 samples.

Results

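The genes described here encode thymosin beta 10 (TMSB10) and the actin cytoskeleton proteins profilin 1 (PFN1), profilin 2 (PFN2), cofilin 1 (CFL1), beta-actin (ACTB), gamma-actin (ACTG1), transgelin 2 (TAGLN2), ezrin (EZR), the myosin light chain MYL6 and tropomyosin 1 (TPM1). The set was selected on the measured FPKM of TMSB10, which was lower in the library labelled knockdown on transcript models that were the same in both libraries; the others were added for their shared role. The difference in TMSB10 is therefore a description and supports nothing by itself. All transcript models that carried a RefSeq name of these genes, or shared an intron with them on the same strand, were taken. The set held 10 of 21306 genes with 300 or more exonic bases, and all 10 were among the 12075 genes whose mean of the 2 libraries reached 1 FPKM. FPKM here is the number of fragments of a model per kilobase of its length less a correction, scaled to the fragments of the library. The correction was 47 bases, or another length for unspliced assembled models without strand. A gene's level is the sum of these values averaged over its RefSeq exon bases. Each model's fragments were taken as spread evenly over its length.

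The RNA came from HCT116, an epithelial line derived from a human colorectal carcinoma. The cells held a construct, switched on by tetracyclines, that targets USP49, a protease that removes ubiquitin from histone H2B. A culture was labelled USP49 knockdown, with doxycycline and harvest 36 h later, and the other was labelled control; both held the construct and grew in blasticidin and puromycin. The treatment text is the same for both, and for the RNA control the labels do not say whether doxycycline was left out. Each group had 1 poly(A) RNA library, so every difference below lies between 2 libraries, has no replicate check and carries no p-value. Whether the construct was 1 clone is not given in the labels.

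Actin exists as free monomers and as filaments, and the cell holds a large pool of monomers ready for use. Beta-thymosins bind monomers and keep them from joining filaments, profilins hand monomers to growing filament ends, and cofilin severs and disassembles old filaments. Transgelins and other crosslinkers bundle filaments, tropomyosins lie along them, myosin II pulls on them, and ezrin ties them to the plasma membrane, as in the microvilli of intestinal epithelium. Beta-actin and gamma-actin are the actins of non-muscle cells.

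The library labelled knockdown had 19978907 recovered fragments on the numbered and sex chromosomes, and control had 16393995, a depth ratio of 1.22. USP49, the gene targeted, had 1.10 FPKM (69 fragments) in the library labelled knockdown, against 0.902 FPKM (46.5 fragments) in control. Its depth-scaled fragment ratio of 1.20 had a 95% counting interval from 0.82 to 1.78, and by the sum of FPKM over the gene's named models, another measure of a gene, it had 1.10 FPKM in the library labelled knockdown and 2.88 FPKM in control. The gene thus did not settle the label, and the library is called by its label throughout. All 6 epithelial markers were counted, with a summed level of 561 FPKM in the library labelled knockdown and 617 FPKM in control. On exons 5 of the 6 had a log2 ratio below 0, where 51.4% of all genes were below. By the sum over named models EPCAM (-0.07), KRT8 (-0.15) and KRT19 (-0.15) were below 0. KRT18 (0.01), CDH1 (0.02) and ELF3 (0.28) were above 0 by that sum, so the direction rests in part on the measure. Of 5 intestinal markers only CDX2 was counted, and CDX1 and VIL1 were at 0 in both libraries. Of 6 mesenchymal or muscle markers 2 were counted, COL1A1 and ACTA2, and COL1A2 was at 0 in both libraries. The 6 markers summed to 10.2 FPKM in the library labelled knockdown and 10.8 FPKM in control. Most of this was COL1A1, with 6.56 FPKM in the library labelled knockdown and 6.90 FPKM in control. PTPRC and HBB of the blood list and CDH5 of the endothelial list were at 0 in both libraries, and no gene of these 2 lists reached 1 FPKM. Any part of the epithelial markers' differences in the results below was not tested.

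TMSB10 had the largest difference of the 10 members. The gene lies on the plus strand of chromosome 2 at 84986274 to 84987310 (hg18), with 482 exonic bases and 2 introns. It had 496 FPKM in the library labelled knockdown, from 4309 fragments, against 753 FPKM in control, from 5370 fragments. TMSB10 was thus 34.2% lower in the library labelled knockdown. The counting intervals, 481 to 511 FPKM there and 733 to 773 FPKM in control, did not overlap. The log2 ratio, in which control is the denominator and 1 FPKM is added to each level, was -0.60. The depth-scaled ratio of fragments was 0.658, with an exact 95% interval from 0.632 to 0.685. Intervals here and below cover counting error only and leave out differences between cultures and library preparations, since each group had 1 library. They also take fragments as independent, which PCR copies of a molecule are not. In a bulk culture, fewer cells with a transcript and less of it per cell cannot be told apart. A single RefSeq model carried all fragments of the gene in both libraries, and neither of its introns was kept by any model.

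The coding sequences of TMSB10 and of TMSB4X, its close relative and the main beta-thymosin of many cells, are shown to give the extent to which the messages of these small proteins differ. Both are RefSeq coding sequences located through the GENCODE 29 annotation of GRCh38, read 5′ to 3′ from the start codon to the stop codon. Capitals mark the codons of the actin-binding motif, residues 18 to 23 counted from the initiator methionine.
TMSB10: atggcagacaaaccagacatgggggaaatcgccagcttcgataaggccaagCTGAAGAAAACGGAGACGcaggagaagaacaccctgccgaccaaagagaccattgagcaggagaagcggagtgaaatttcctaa
TMSB4X: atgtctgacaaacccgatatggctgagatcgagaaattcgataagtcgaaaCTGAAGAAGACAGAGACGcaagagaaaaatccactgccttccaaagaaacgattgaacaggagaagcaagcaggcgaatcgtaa
The sequences share 98 of 135 bases (72.6%), and the peptides they encode share 33 of 44 residues (75.0%). TMSB4X, on the X chromosome, had 8.86 FPKM in the library labelled knockdown, from 104 fragments, and 10.4 FPKM in control, from 99 fragments. Its fragment ratio of 0.862 had an interval from 0.648 to 1.15, which holds both no difference and the ratio of TMSB10. A difference in TMSB4X inside that interval was not detectable at this depth.

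**Figure D1:**
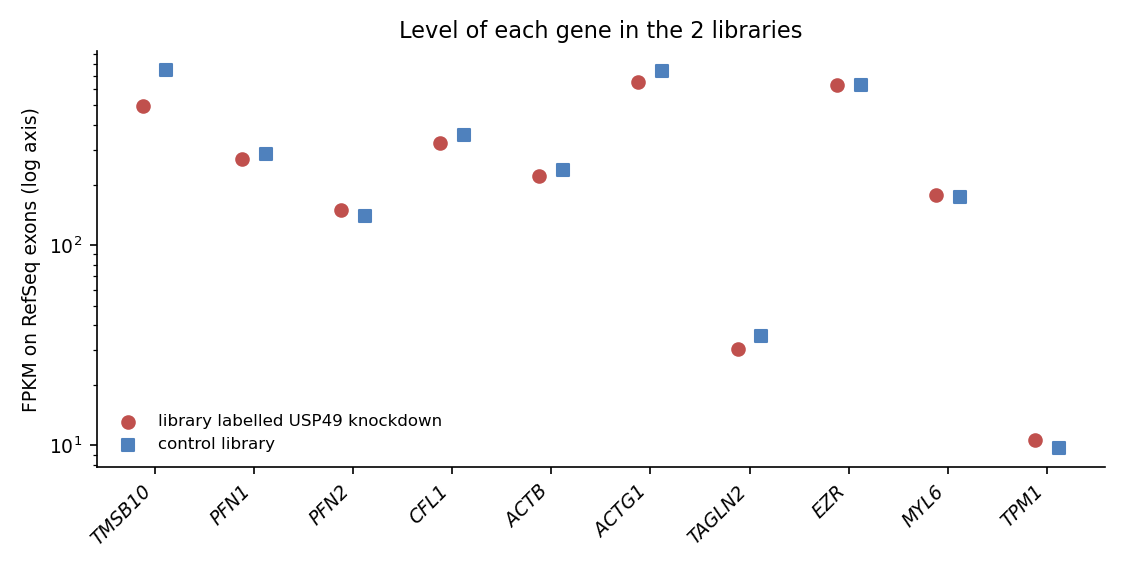
Level of each gene in FPKM on its RefSeq exons (log axis), with 1 red circle for the library labelled USP49 knockdown and 1 blue square for the control library. TMSB10 shows the widest gap, 496 against 753 FPKM, and the other pairs lie close together.

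The order of the levels differed at the top. ACTG1 ranked 1 in the library labelled knockdown at 656 FPKM, EZR ranked 2 at 632 FPKM and TMSB10 ranked 3. TMSB10 ranked 1 in control, ACTG1 ranked 2 at 739 FPKM and EZR ranked 3 at 628 FPKM. In control the counting intervals of TMSB10 and ACTG1 (730 to 748 FPKM) overlapped, so the order of those neighbours was not resolved. The correction of 47 bases in the length also raises the level of TMSB10, the shortest member, the most. CFL1, PFN1, ACTB, MYL6, PFN2, TAGLN2 and TPM1 followed in this order in both libraries, at levels 323 to 10.7 FPKM in the library labelled knockdown and 355 to 9.66 FPKM in control. The counting intervals of neighbours in this stretch did not overlap in either library.

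Beside TMSB10, no member passed the smaller of the fold thresholds used, a ratio of 5 to 4 or 0.32 on the log2 scale. Past it on the lower side was 1 of 10 members, where the share over all 12075 genes was 2.33%, and since TMSB10 was chosen for this difference nothing is read from the count. On the higher side were 0 of 10 members, where the share of all genes was 1.47%, and past 2-fold were 0 of 10, where it was 0.795%. With depth scaling 281 of 12075 genes were past the smaller fold on the lower side and 177 on the higher side. With TPM scaling, in which the levels of a library add up to a fixed total, these were 30 and 2 of 4341 genes. Without depth scaling they were 119 and 3543 of 12207 genes. The settings thus counted unlike sets of genes. Leaving out depth scaling put the median of all genes at 0.25 on the log2 scale. TPM scaling put the median of the 4341 genes it counted at -0.098. The signs below are thus relative to total fragments. The members' log2 ratios had a median of -0.09, and all genes had a median of -0.00422, with 95% of them between -0.31 and 0.25. Of the members, 6 were below 0, as were 51.4% of all genes. The fragment ratio's interval lay below 1 for 6 members, where the share of all genes was 14.0%, and above 1 for 1 member, where it was 13.0%. These intervals shrink with the number of fragments, and the members were deeply counted. The member above 1, PFN2, was counted with an unspliced model without strand that only the library labelled knockdown held.

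**Figure D2:**
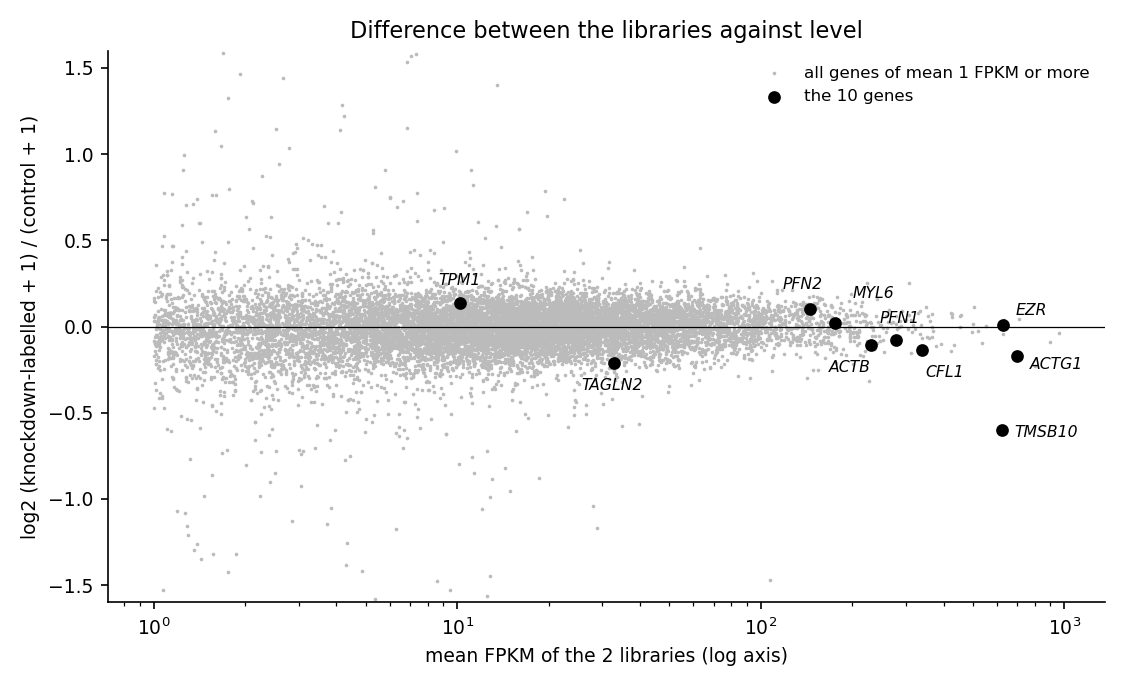
Log2 ratio (library labelled knockdown over the control library, 1 FPKM added to each) against the mean FPKM of the 2 libraries on a log axis, for the 12075 genes counted (grey) and the 10 genes (black). TMSB10 at -0.60 lies below all but 1 of the other genes at 100 FPKM or more, and 52 grey genes outside ±1.6 are not drawn.

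TMSB10 ranked 99 from the lowest of 12075 genes. Among the 532 genes whose mean reached 100 FPKM, 95% lay between -0.17 and 0.17, and 1 was lower than TMSB10. That gene, named after its values were seen, was the antisense RNA ENO1-AS1, with 56.6 FPKM in the library labelled knockdown and 159 FPKM in control; with no strand marked, its reads cannot be told from those of its partner. Past the smaller fold were 0.376% of these 532 genes on the lower side and 0% on the higher side. Among the 48 genes within 2-fold of the level of TMSB10, none was as low and none passed the smaller fold. The 5 nearest to it in log2 ratio were S100A6 (-0.23), ACTG1 (-0.17), MIF (-0.16), KRT19 (-0.15) and S100A4 (-0.14). S100A6 and S100A4 are calcium-binding proteins, MIF is a secreted cytokine and KRT19 a keratin of simple epithelia. This likeness rests on 2 libraries, and by the sum over named models S100A6 stood at 0.03.

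TMSB10 was the shortest of the members. Genes with 300 to 600 exonic bases spread more widely: the 144 of them had a median of -0.06, with 95% between -0.89 and 0.71, and 5 were lower than TMSB10. Of the 38 such genes at 100 FPKM or more, 1 was lower than TMSB10 and the median was -0.06. For unspliced assembled models without strand the deposited values followed a length correction that varied with model length. For long models its median was 252 bases in the library labelled knockdown and 246 bases in control. Each model was then given the correction seen at its own length, in place of the 47 bases used in the deposited values. With this, TMSB10 stood at -0.56 and the median of the 144 short genes at -0.03. Any further part of transcript length in the TMSB10 difference was not tested.

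The profilins, which share the monomer pool with thymosin, showed small differences. PFN1 (minus strand of chromosome 17, 4789690 to 4793126) had 271 FPKM in the library labelled knockdown and 286 FPKM in control. Its log2 ratio was -0.08 and its fragment ratio 0.947, with an interval from 0.915 to 0.980. PFN2, the profilin best known from neurons (minus strand of chromosome 3, 151165381 to 151171431), had 150 FPKM in the library labelled knockdown and 140 FPKM in control. Its log2 ratio was 0.10 (-0.05 under TPM scaling) and its fragment ratio 1.07, with an interval from 1.03 to 1.11. An unspliced model without strand, 5451 bases long, held 787 fragments over PFN2 in the library labelled knockdown and had no counterpart in control. With models of the gene's own strand only, PFN2 had 143 FPKM in the library labelled knockdown and 140 FPKM in control, a log2 ratio of 0.03.

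Both actin genes were slightly lower in the library labelled knockdown. ACTB (minus strand of chromosome 7, 5533305 to 5536758) had 222 FPKM there and 239 FPKM in control, a log2 ratio of -0.10 and a fragment ratio of 0.930 (interval 0.901 to 0.961). ACTG1 (minus strand of chromosome 17, 77091592 to 77094487) had 656 FPKM in the library labelled knockdown, from 26908 fragments, and 739 FPKM in control, from 24904 fragments. Its log2 ratio was -0.17 and its fragment ratio 0.887 (interval 0.871 to 0.902). The actins are shown by their first 36 coding bases, since this end holds all of the residues by which the proteins differ. Capitals mark the 7 bases that differ.
ACTB: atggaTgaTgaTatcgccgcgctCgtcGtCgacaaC
ACTG1: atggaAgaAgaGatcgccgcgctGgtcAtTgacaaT
Over the whole coding sequence the genes share 91.2% of 1128 bases and 371 of 375 residues (98.9%). GENCODE 29 names 10 pseudogenes after ACTB and 20 after ACTG1. It also names 10 after PFN1, 8 after CFL1, 5 after MYL6, 2 after TMSB10 and 1 after TAGLN2. The way the authors' mapping divided reads among such copies is not given in the sources used here.

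Of the proteins that act on filaments, CFL1 and TAGLN2 lay below 0 and EZR, MYL6 and TPM1 at or just above it. CFL1 (minus strand of chromosome 11, 65378861 to 65382380) had 323 FPKM in the library labelled knockdown and 355 FPKM in control, with a log2 ratio of -0.14 and a fragment ratio of 0.910 (interval 0.881 to 0.940). TAGLN2 (minus strand of chromosome 1, 158154527 to 158161908) had 30.5 FPKM in the library labelled knockdown and 35.4 FPKM in control. Its log2 ratio was -0.21 on exons and 0.06 by the sum over named models, so the direction rests on the measure. EZR (minus strand of chromosome 6, 159106761 to 159160444) had 632 FPKM in the library labelled knockdown, from 40453 fragments, and 628 FPKM in control, from 33025 fragments. The fragment ratio of EZR, 1.01, had the narrowest interval, 0.991 to 1.02. MYL6, an essential light chain of non-muscle and smooth muscle myosin (plus strand of chromosome 12, 54838312 to 54841633), had 178 FPKM in the library labelled knockdown and 175 FPKM in control, with a fragment ratio of 1.02 (interval 0.960 to 1.08). TPM1 (plus strand of chromosome 15, 61121891 to 61151166) was the lowest member, with 10.7 FPKM in the library labelled knockdown and 9.66 FPKM in control, and a fragment ratio of 1.11 (interval 0.987 to 1.24). The small positive log2 ratios of EZR (0.01), MYL6 (0.02) and TPM1 (0.13) turned below 0 under TPM scaling, at -0.14, -0.12 and -0.00304. That scaling also put the median of all genes it counted below 0, at -0.098. EZR and MYL6 lay below this median and TPM1 above it. In the main setting EZR, MYL6 and TPM1 all lay above the median of all genes, -0.00422. TPM scaling counted 4341 genes of 12075. The part of this smaller set, and of the constant added to each level, in the change of place was not tested. No member shared exonic bases with another gene.

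**Figure D3:**
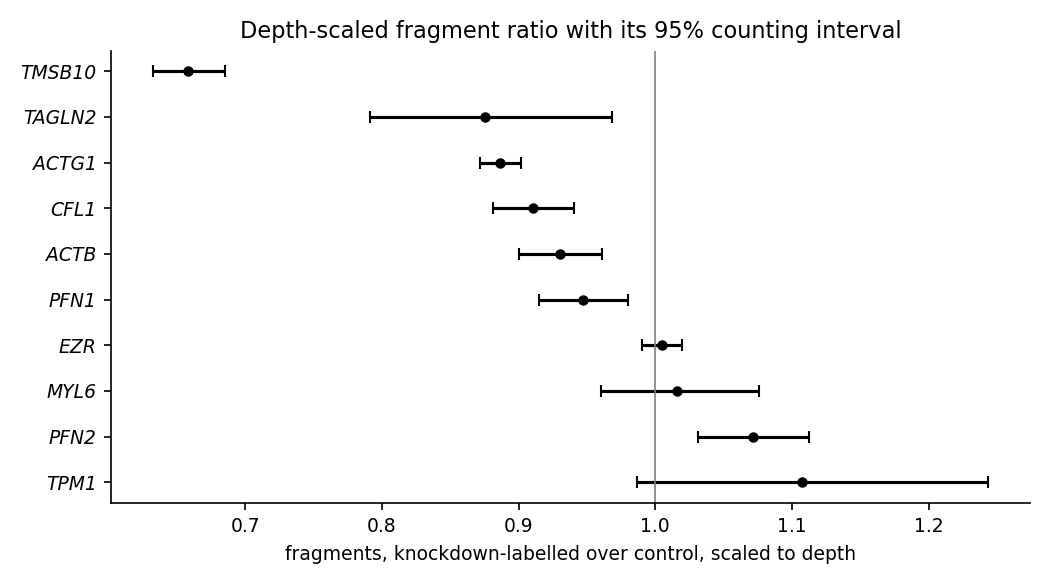
Depth-scaled ratio of fragments, library labelled knockdown over control, for each gene (point) with its exact 95% counting interval (bar), and a line at 1. TMSB10 at 0.658 lies apart, the intervals of EZR, MYL6 and TPM1 hold 1, and PFN2 lies above 1. PFN2 is counted here with an unspliced model without strand that only the library labelled knockdown held. With models of its own strand only, its log2 ratio is 0.03. The log2 ratio of PFN2 turns below 0 under TPM scaling, where the median of the 4341 genes counted is -0.098. TAGLN2 turns above 0 by the sum over named models.

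The transcript models that held 5% or more of a gene's exonic fragments were of the same kinds in both libraries for 5 of 10 members (TMSB10, PFN1, PFN2, MYL6 and TPM1), as for 36.3% of all genes. The unspliced PFN2 model of the library labelled knockdown held less than that on exons, and had no counterpart in control. Named models numbered 27 in the library labelled knockdown, 18 of them above 0, and 26 in control, 17 of them above 0. Assembly was done separately for each library, so a form listed in 1 library only shows how the software accounted for the reads there. The forms below were chosen after the models had been seen, and their shares are estimates by the authors' software.

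MYL6 and PFN2 were each divided between the same pair of RefSeq forms in both libraries. The MYL6 form with an extra exon before the last one held 31.6% of the gene's summed FPKM in the library labelled knockdown and 32.0% in control. By fragments the share was 32.9% (exact 95% interval 31.2 to 34.7%) in the library labelled knockdown and 33.3% (31.3 to 35.3%) in control, and the intervals overlapped. This 45-base exon is shown because it carries its own stop codon, in capitals, and so replaces the end of the protein.
MYL6 exon: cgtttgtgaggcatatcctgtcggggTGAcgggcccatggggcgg
The PFN2 forms differ in where the last exon begins. The form with the longer last exon (2106 bases in all, against 1784) held 40.1% of FPKM in the library labelled knockdown and 41.5% in control. By fragments these were 44.2% (42.9 to 45.5%) in the library labelled knockdown and 45.7% (44.3 to 47.1%) in control, again with overlapping intervals. The coding parts of the last exons are shown because they give the proteins, each of 140 residues, different ends; capitals mark the stop codon.
PFN2 longer last exon: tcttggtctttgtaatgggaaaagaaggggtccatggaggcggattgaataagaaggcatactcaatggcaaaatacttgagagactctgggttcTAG
PFN2 shorter last exon: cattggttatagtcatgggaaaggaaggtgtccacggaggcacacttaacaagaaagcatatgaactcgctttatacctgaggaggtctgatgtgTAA

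ACTG1 differed in the models assembled. In control, a model of 1950 bases that kept the intron at chromosome 17, 77092730 to 77092808 (hg18), held 34.1% of summed FPKM, from 8502 fragments. In the library labelled knockdown no listed model kept this intron, which sets no limit on the reads it held there. A model of 1872 bases that removed it, with the same upstream end, held 67.5% of ACTG1 FPKM there. The intron is 79 bases long and is shown, read on the coding strand, because only this stretch separates these models beside a single base at the end. Capitals mark the splice sites.
ACTG1 intron: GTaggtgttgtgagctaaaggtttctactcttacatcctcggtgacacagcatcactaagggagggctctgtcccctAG
Read on in frame, it meets a stop codon at base 57, and 1 transcript of GENCODE 29 keeps it. The exons beside it have 439 and 182 bases. The deposited models hold no read positions, so reads inside the intron could not be counted. Both libraries listed 2 RefSeq forms of ACTG1 at 0.

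ACTB showed the other order. In the library labelled knockdown a model that kept the introns of 441 bases (chromosome 7, 5534877 to 5535317) and 134 bases (5535558 to 5535691) held 13.4% of ACTB FPKM, from 1403 fragments. In control no such model was listed, which sets no limit on kept introns there. These fragments were spread over 2372 bases of model, and how many lay in the introns is not known from the files.

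EZR, CFL1 and TAGLN2 differed in where models began. EZR forms that start at the upstream first exon held 62.0% of FPKM in the library labelled knockdown and 50.7% in control, and those that start at the middle one held 38.0% in the library labelled knockdown and 35.0% in control. The rest in control, 14.3% from 4443 fragments, lay on a model that starts inside the first long intron, for which the library labelled knockdown had none. Among the RefSeq forms alone the upstream share was 61.6% in the library labelled knockdown and 59.2% in control. A CFL1 model starting inside the first intron held 17.3% of FPKM in control, from 1013 fragments, and none was listed in the library labelled knockdown. The annotated TAGLN2 form held 76.6% in the library labelled knockdown and 57.1% in control. The remainder was a 2-exon model of the 3′ end in the library labelled knockdown, and in control a model of the 5′ end. Control also had an unspliced TAGLN2 model of 740 bases and 288 fragments, which counted on exons but not in the sum, where the 2 measures part. TPM1 was carried in both libraries by 1 assembled model of 1628 bases that starts at an inner annotated first exon, at 22.0 FPKM of its own length in the library labelled knockdown and 19.9 FPKM in control. The 7 RefSeq models of TPM1 were listed at 0 in both.

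**Figure D4:**
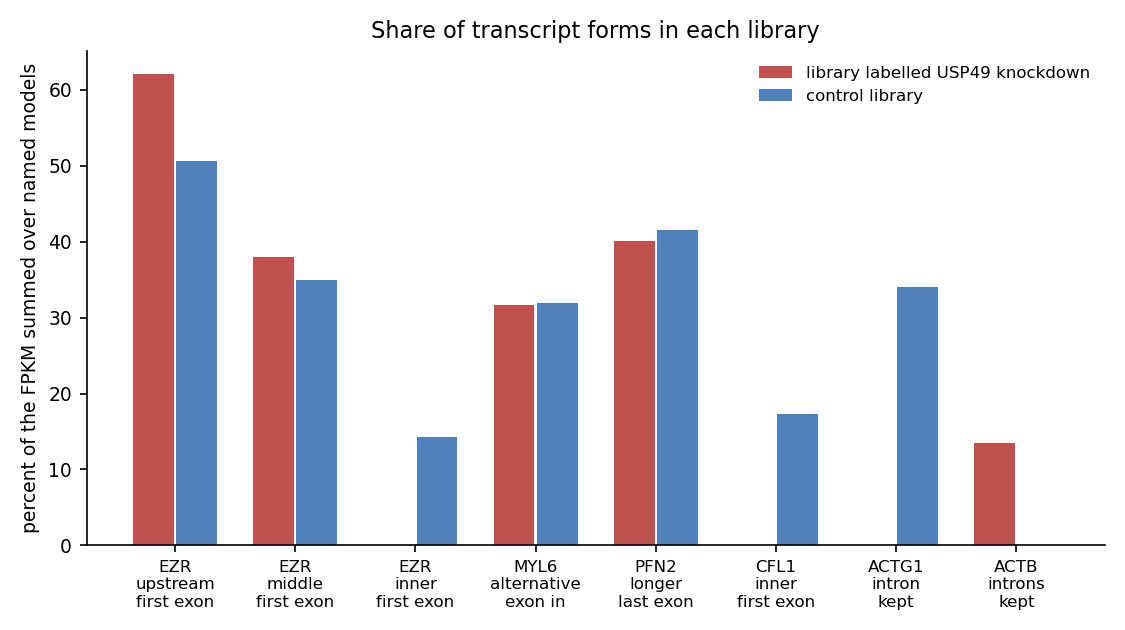
Share of each transcript form in the FPKM summed over a gene's named models, in percent, with red bars for the library labelled USP49 knockdown and blue bars for control. MYL6 and PFN2 have near-equal bars, while the EZR and CFL1 inner first exons and the ACTG1 kept intron are listed in control only and the ACTB kept introns in the library labelled knockdown only.

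The wider actin pathway had small differences on exons, more of them below 0 than above. Of 108 genes in 9 lists, 96 were counted, 63 with a log2 ratio below 0 and 33 above, with a median of -0.05. Without the members 86 were counted, 57 below (66.3%) and 29 above 0, where 51.4% of all genes were below. None of the 86 passed the smaller fold on exons, where the share of all genes was 3.79%, and all lay between -0.22 and 0.23. By the sum over named models 85 were counted, and 7 were past it on the lower side and 2 on the higher side, where the share of all genes was 16.8% for both sides together. By that sum the 85 genes ranged from -0.63 to 0.42, with a median of -0.03. The interval of the fragment ratio lay below 1 for 30 of the 86 genes (34.9%), where the share of all genes was 14.0%, and above 1 for 5 (5.81%), where it was 13.0%. Such intervals shrink with the number of fragments, and all genes were not matched to these for fragments. The genes at the ends on exons, named after their values were seen, were the actin regulator WASF3 (-0.22) and the formin DIAPH3 (0.23).

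Of the monomer binders 9 of 11 were counted, 7 below and 2 above 0, and TMSB10 alone was past the smaller fold. TMSB4X, given above, had a log2 ratio of -0.20 on exons and 0.03 by the sum over named models, so its direction rests on the measure. Of the actins 3 of 6 were counted and all 3 were below 0. Of cofilin and its regulators all 13 were counted, 8 below and 5 above 0. CFL2, the cofilin typical of muscle, had 37.3 FPKM in the library labelled knockdown and 33.5 FPKM in control, a log2 ratio of 0.15. DSTN, which encodes the related depolymerising factor destrin, had 111 FPKM in the library labelled knockdown and 106 FPKM in control, a log2 ratio of 0.07 on exons and 0.39 by the sum. The intervals of CFL2 (1.05 to 1.18) and DSTN (1.02 to 1.13) lay above 1, and that of CFL1 below it.

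The Arp2/3 complex, which nucleates branched filaments, and its activators had 13 of 14 genes counted, 7 below and 6 above 0, with a median of -0.01. Capping and severing proteins and formins had 13 of 15 counted, 8 below and 5 above 0. Crosslinkers and bundlers had 14 of 17 counted, 11 below and 3 above 0, where 51.4% of all genes were below. The interval lay below 1 for 10 of the 14 (71.4%), where the share of all genes, not matched for fragments, was 14.0%. TAGLN, the smooth muscle relative of TAGLN2, was near the lower limit with 1.40 FPKM in the library labelled knockdown and 1.58 FPKM in control.

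Membrane linkers had 15 of 15 genes counted, 11 below and 4 above 0. Radixin and moesin are the other members of the ezrin family. RDX had 22.5 FPKM in the library labelled knockdown and 21.9 FPKM in control, and MSN had 59.8 FPKM in the library labelled knockdown and 61.8 FPKM in control. Both intervals held 1. Tropomyosins and tropomodulins had 7 of 7 counted, 3 below and 4 above 0. TPM2, at 152 FPKM in the library labelled knockdown and 154 FPKM in control, exceeded TPM1 per length in both libraries. TPM4 had 27.9 FPKM in the library labelled knockdown and 30.4 FPKM in control (-0.12). TPM3 had 7.38 FPKM in the library labelled knockdown and 7.80 FPKM in control, averaged over 11179 exonic bases. The log2 ratio of TPM3 was -0.07 on exons and 0.06 by the sum over named models, so its direction rests on the measure.

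Non-muscle myosin II had 9 of 10 genes counted, 5 below and 4 above 0. Among its light chains, MYL6B had 40.1 FPKM in the library labelled knockdown and 39.3 FPKM in control. MYL12A, a regulatory light chain, had 52.3 FPKM in the library labelled knockdown and 57.9 FPKM in control (-0.14), and its near copy MYL12B had 78.0 FPKM in the library labelled knockdown and 81.5 FPKM in control (-0.06). MYL12A and MYL12B are alike in sequence, and reads may be divided between them in either way.

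**Figure D5:**
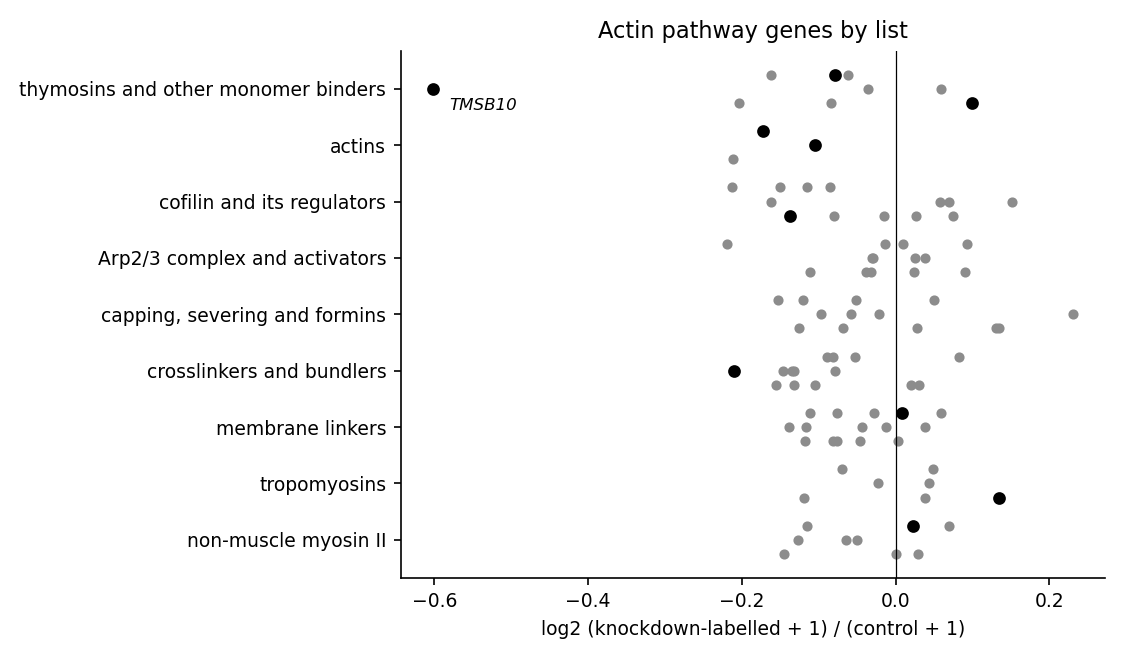
Log2 ratio (library labelled knockdown over the control library) for each counted gene of the 9 lists (grey) and for the 10 genes described here (black), 1 row per list. TMSB10 lies at -0.60 and every other gene between -0.22 and 0.23 on exons. Small positive ratios of PFN2, EZR, MYL6 and TPM1 turn below 0 under TPM scaling, where the median of the 4341 genes counted is -0.098.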

How the data were processed

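Poly(A) RNA of 2 HCT116 cultures was sequenced with no step described that marks strand, per the labels' protocols. The deposited files are transcript assemblies per library, with FPKM and an interval for each model, per the file headers. Cufflinks, TopHat, Bowtie, Picard, SAMtools and bedtools, and the build hg18, appear in the submitters' processing notes without versions. The authors' FPKM were found not to be divided by depth, which the design had not foreseen. Models alone in a locus gave whole fragments (within 0.02) from their interval in 99.99% of cases in both libraries, a step that holds at any scaling. Of those annotated, spliced or stranded, values followed these fragments over length minus 47 bases, with no term for depth. This held for 99.98% in the library labelled knockdown and 99.96% in control. Fragments were recovered for all models and spread over each gene's union of RefSeq exons, models of either strand, scaled to the library total (Python 3.11.15, scipy 1.17.1). Steps were tested on simulated data. Ratios are log2 with a pseudocount of 1 FPKM, which understates differences of low genes. Genes with 300 exonic bases and mean 1 FPKM were counted. Calls are folds; intervals are exact conditional binomial. Named were the members, their families, list genes past a ratio of 5 to 4 (up to 3 a list) and the 5 nearest TMSB10 in ratio. Members and lists were chosen with earlier results of these data known. Of 41229 RefSeq accessions 39319 were named by accession and 419 by the files' symbol; 1491 had no name. Sequences come from GENCODE 29 (GRCh38), matched by RefSeq accession. Of the lists, 1 pathway list and 1 marker gene are not reported here. Alternatives are given in the closing section.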

Additional observations from a re-analysis of the deposited data

How the results depend on the processing

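TMSB10 kept its direction in every setting tried, with a log2 ratio from -0.73 (TPM) to -0.56 (fragment length correction, an alternative chosen after seeing the data) where depth was scaled, and -0.32 as deposited without depth scaling, which does not reach the smaller fold of 5 to 4. Members past that fold numbered 1 in the main setting, 2 as deposited (PFN2 and TPM1, both higher) and 2 with fragment length correction (TMSB10 and TAGLN2, at -0.35). Genes past it numbered 458 in the main setting, 1939 by the sum over named models, 3662 as deposited, 32 with TPM, 709 with a pseudocount of 0.1, 195 at a mean of 5 FPKM or more and 76 with the same models only. Past 2-fold were 96 genes, against 352 by the sum, 3 with TPM, 37 at 5 FPKM or more and 4 with the same models only. TPM, the stricter filter and the same models leave 4341, 9319 and 4388 genes of 12075, and the sum compares models of unlike length; other causes were not tested. Of 63 further ratios of members under alternatives 41 moved by less than their counting interval and 22 by more, and of 38 shares of forms 22 and 16. TMSB10, the only member past that fold in the main setting, did not reverse; TAGLN2, PFN2 and TPM1, past it in another setting, had both signs over the settings. No paired analysis was possible because each group has 1 library. Depth limits the ratio of TPM1, whose interval of 0.987 to 1.24 holds 1, and USP49 had too few fragments to check the label.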
